A study of Homo sapiens with 12 samples.

Results

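LX-2 cells that carried only a control mimic were compared between 48 h and 24 h after transfection, to describe which signalling genes and marker genes of the cultured cells were higher or lower at the later time. The comparison took the 6 control samples of the 12 samples of the study, 3 at 24 h and 3 at 48 h, and the 6 samples with a miR-25 mimic were set beside them only where stated. LX-2 is an immortalised line of activated human hepatic stellate cells (HSCs), so the samples stand for 1 line and not for several donors. Each control sample was a well of LX-2 cells transfected with 10 pmol/ml of a control mimic that imitates a Caenorhabditis elegans miRNA, and the miR-25 samples received the same dose of miR-25 mimic in wells of the same transfections. Cells of both kinds were kept in medium with little serum and transfected with Lipofectamine LTX when the wells were not yet full. The transfection efficiency, given as the fraction of fluorescent cells in a parallel well, at 24 h was 0.59, 0.75 and 0.81, and at 48 h 0.42, 0.61 and 0.65 (n = 3 transfections each). The time points came from separate transfections on separate days, so time in culture, day of transfection and yield of counts cannot be told apart.

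HSCs store vitamin A in the healthy liver and turn into collagen-producing, contractile cells when the liver is injured. Notch receptors are cut in the secretory pathway by furin, cut again at the cell surface by ADAM17 and then within the membrane by the gamma-secretase complex, after which the freed intracellular part joins RBPJ and a Mastermind protein on DNA. Wnt ligands bind Frizzled receptors and act through dishevelled proteins, either on beta-catenin or on small GTPases and kinases, and Hedgehog ligands release the membrane protein SMO to act on the GLI transcription factors. All of these pathways have been tied to HSC activation, and the panel used here, made for stem cell research, covers their components.

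In the nCounter assay a pair of probes binds a stretch of the transcript and a fluorescent barcode on 1 of them is counted, with no amplification. A value in the text, called the scaled count, is the raw count as a share of its sample's sum over the 199 panel genes, times the mean sum of the 6 control samples. Levels of different genes are not compared because probes differ in yield. Every value of a gene rests on the abundance of the stretch counted alone. For this reason the stretches are shown for the genes, BMP1 left out, that passed the test between the time points with all 6 samples. They are written 5′ to 3′ in the sense of the transcript, as the panel sheet lists them, with all letters in lower case. NOTCH3, SMO, FGF1 and RBPJ lie on chromosomes 19, 7, 5 and 4 and are given with all 100 bases, and FURIN and WNT5B lie on chromosomes 15 and 12 and are given with the first 30 of 100 bases.
NOTCH3: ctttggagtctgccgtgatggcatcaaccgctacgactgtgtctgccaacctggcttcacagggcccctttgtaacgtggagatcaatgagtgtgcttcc
SMO: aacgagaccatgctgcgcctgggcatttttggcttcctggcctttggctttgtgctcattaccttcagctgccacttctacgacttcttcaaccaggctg
FGF1: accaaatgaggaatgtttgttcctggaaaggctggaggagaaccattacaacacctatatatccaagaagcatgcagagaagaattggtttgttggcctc
RBPJ: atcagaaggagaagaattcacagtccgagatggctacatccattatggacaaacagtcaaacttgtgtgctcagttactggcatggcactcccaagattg
FURIN, first bases: gggtcccagtgggaggggcaggctgacatc
WNT5B, first bases: ggtgctctcttactctttcatccacgtgca

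The total over the panel was 321243 to 404404 counts at 24 h and 107377 to 183272 counts at 48 h, a ratio of the means of 0.404 (exact permutation test, two-sided, p = 0.1, the smallest that 3 against 3 samples allow). The positive control probes, which are added in fixed amounts, gave 0.692 times as many counts at 48 h as at 24 h, so the panel total was lower also per positive control count (ratio 0.589). A gene was counted as above background where its count exceeded, by at least 2 SD, the average of the 8 negative control probes. By this measure 151 to 155 genes were above background per sample at 24 h and 139 to 148 at 48 h, and 133 genes were above it in all 6 samples. ALDH1A1, KRT15, LRP2 and NANOG, named because of these values, were above background in each 24 h sample and in none at 48 h, where the counts were also fewer, and 0 genes had the opposite pattern. PPARG, a marker of the quiescent HSC, was above background in 0 of 6 samples and CDH1 in 1. COL1A1, CDH2, PLAU and CD44, taken here as activation markers, were above it in all 6, so these genes were detected at both times. The activation markers ACTA2 and VIM are not on the panel. The T cell genes CD3D, CD8A and CD8B were above background in 0 of 6 samples. CD4 was above it in 5, at 21 to 39 counts, and had 6 counts in 48 h replicate 1. In RNA of whole wells, fewer cells that express a gene and less of its RNA per cell cannot be told apart.

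Replicate 1 of the 48 h controls lay apart from replicates 2 and 3. Tests were run on the 136 genes that averaged at least 20 counts over the control samples. Of these, 15 were at least 2-fold lower and 3 at least 2-fold higher in replicate 1 than in the mean of the other two. By contrast, 0 genes differed by as much between replicates 2 and 3 or between any pair of 24 h samples. CXCL12, the chemokine that stellate cells secrete, had scaled counts of 838, 8155 and 8051 in 48 h replicates 1, 2 and 3, against 7827, 8188 and 8984 at 24 h. ZIC2, a zinc finger factor related to the GLI proteins, went the other way with 179, 10.7 and 9.55 at 48 h, against 37.7, 35.7 and 28 at 24 h. Both genes were thus set by replicate 1 in opposite directions, and without it CXCL12 was at the 24 h level while ZIC2 was below it. The raw ZIC2 counts of replicates 2 and 3 were 6 and 7, below the background levels of these samples (7.04 and 7.5). The size of its change without replicate 1 is therefore set by values at the floor. COL1A1, the main fibrillar collagen chain, had 1851, 3619 and 4643 at 48 h and 2633, 2620.0 and 2726 at 24 h. Replicate 1 was below all 24 h samples, and replicates 2 and 3 were above them. Further genes that were low in this sample included the reference gene GUSB, the kinase MAPK9, the Mastermind coactivators MAML1 and MAML3, the ligands JAG1 and JAG2 and the receptor FZD2. The miR-25 sample of the same transfection had the same feature: 12 of the 15 low genes and 2 of the 3 high ones were also at least 2-fold apart from the miR-25 replicates 2 and 3 there. This control sample also had the smallest panel total, 107377 counts, and the lowest transfection efficiency, 0.42, and their part in these values was not tested. For this reason each result is given with all samples and without 48 h replicate 1.

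**Figure D1:**
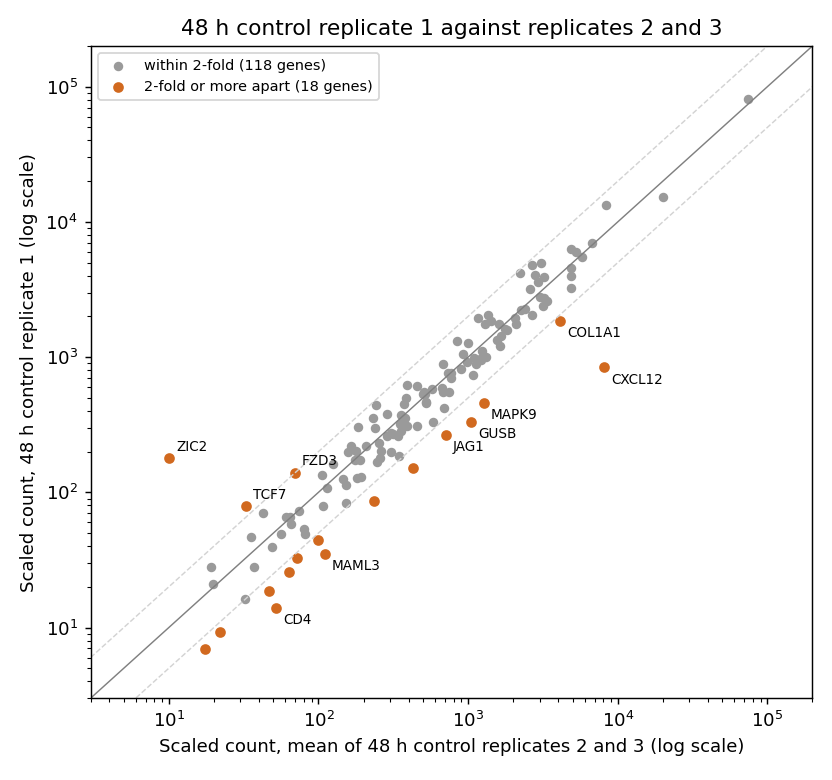
Scaled count of each of the 136 tested genes in 48 h control replicate 1 (vertical, log scale) against the mean of replicates 2 and 3 (horizontal, log scale), with equality as a solid line and 2-fold differences as dashed lines. 118 genes lie within 2-fold and 18 do not, with CXCL12 farthest below the line at 838 against 8155 and 8051, and ZIC2 farthest above it. The ZIC2 counts of replicates 2 and 3 were below background.

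With all 6 samples, edgeR's quasi-likelihood test called 7 of the 136 genes at an adjusted p under 0.05. FURIN, SMO, NOTCH3 and BMP1 were higher at 48 h (2.94% of the genes tested) and WNT5B, FGF1 and RBPJ were lower (2.21%). In all, 42 genes had an unadjusted p under 0.05. These changes are relative to the panel total, over which the median log2 change of all genes was 0.13. Relative to the positive control probes, the median moved by -0.77 to -0.64 and 0 genes were called higher and 26 lower, so "higher" below means a larger share of the counts of the panel.

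FURIN, the protease that makes the first cut of Notch receptors and also matures other secreted proteins, had scaled counts of 158, 149.5 and 165 at 24 h and 319, 355 and 345 at 48 h. Every 48 h sample, replicate 1 included, lay far above each 24 h sample, and the log2 change was 1.11 (standard error, SE, 0.11, adjusted p = 0.00277). Scaled to the positive control probes, FURIN had a log2 change of 0.35, without a call (adjusted p = 0.424). NOTCH3, a receptor linked to the myofibroblast state of stellate cells, was counted at 20.4, 25.5 and 23.3 at 24 h and 58.2, 79.9 and 50.5 at 48 h. It stood near the lower end of what the panel can measure at both times. The earlier samples gave raw counts of 33, 35 and 30, the later ones 25, 45 and 37. Similar raw counts thus made up a larger share of the smaller 48 h totals. The log2 change of NOTCH3 was 1.44 (SE 0.25, adjusted p = 0.0157). Under scaling to the positive control probes it was 0.66, without a call (adjusted p = 0.205). SMO, the signal transducer of the Hedgehog pathway, rose from 95.2, 101 and 106 to 175, 183 and 166. The times did not overlap, with a log2 change of 0.79 (SE 0.13, adjusted p = 0.014). Under scaling to the positive control probes the log2 change of SMO was 0.023, without a call (adjusted p = 0.952). BMP1, which despite its name is the metalloprotease that removes the C-terminal propeptide of procollagen, rose from 1159, 1225 and 1312 to 1609, 1707 and 1843. Its change was smaller, with a log2 value of 0.48 (SE 0.099, adjusted p = 0.0333), and BMP1 was the only one of the 7 genes to point the other way under scaling to the positive control probes (log2 change -0.26). Its call was also lost with limma, with background subtraction and with the 5 reference genes.

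WNT5B, a Wnt ligand that mostly acts without beta-catenin, fell from 893, 889.9 and 830.2 at 24 h to 186, 282 and 412 at 48 h. The 24 h samples were tightly grouped, while the 48 h samples spread over more than 2-fold with replicate 1 lowest, and the log2 change was -1.55 (SE 0.25, adjusted p = 0.014). FGF1, the acidic fibroblast growth factor, fell from 1302, 1669.6 and 1482 to 757, 705 and 837, a log2 change of -0.95 (SE 0.13, adjusted p = 0.00772). RBPJ, the DNA-binding factor to which the freed intracellular part of every Notch receptor binds, fell from 2883, 2759 and 2815 to 1946, 2021 and 2083. This was a 1.4-fold decrease with little spread within either time (log2 change -0.48, SE 0.086, adjusted p = 0.017). Replicate 1 of 48 h did not stand apart in any of these genes but WNT5B, where it was 0.536 times the mean of the other two. FURIN was called also when any single control sample was left out. The other 6 genes lost the call in some of these fits. Without 24 h replicate 1 or 2 the test called FURIN and FGF1, and without 24 h replicate 3 or 48 h replicate 2 it called FURIN alone.

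**Figure D2:**
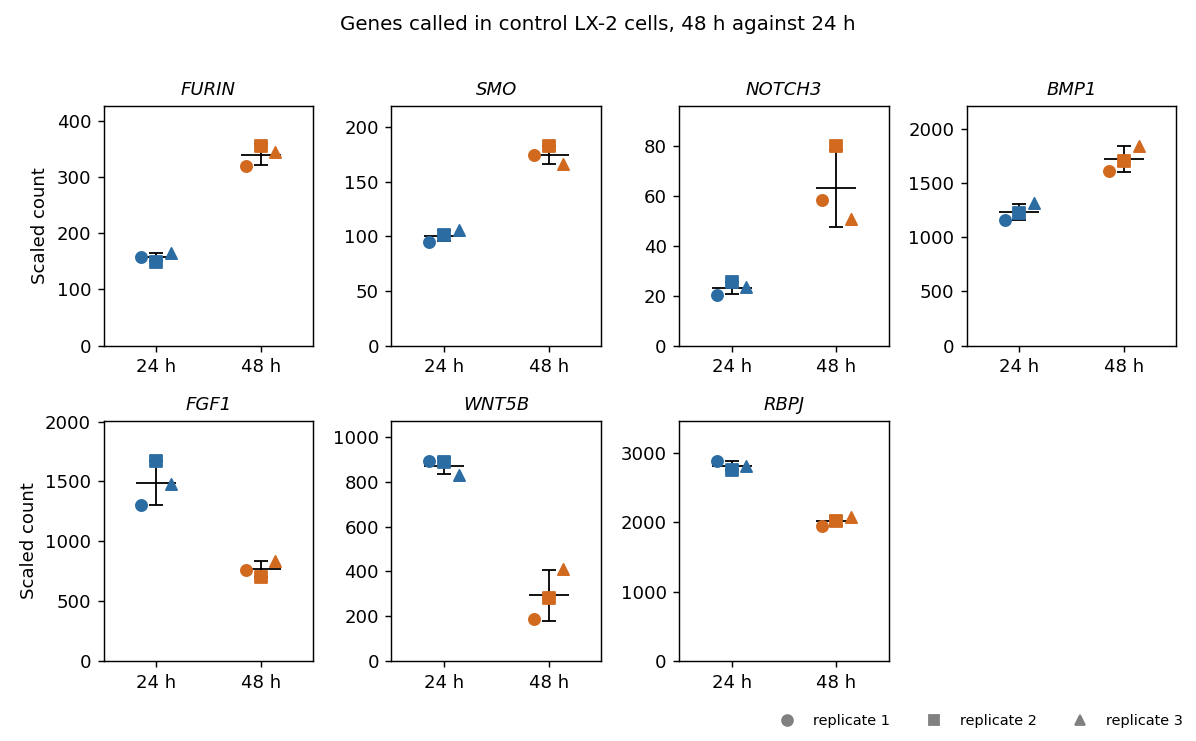
Scaled count (vertical, linear from 0) of the 7 genes called at an adjusted p under 0.05 in the 3 control samples of 24 h and of 48 h; symbols mark replicates, horizontal bars the mean and error bars the SD (n = 3). In each of the 7 genes the 3 samples of 48 h lie on 1 side of the 3 samples of 24 h.

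Without 48 h replicate 1 the same test called 54 of the 136 genes, 37 higher (27.2%) and 17 lower (12.5%), and these included all 7 genes above. The spread estimated between samples, as a coefficient of variation common to all genes, went from 17.6% to 7.84% when this sample was left out. Replicate 1 was left out because it lay apart, which by itself lowers the spread, so the 54 calls describe the 5 remaining samples and are not a firmer version of the first test. The split into 37 and 17 also depended on the scaling. It was 31 and 29 with TMM factors and 29 and 32 with the size factors of DESeq2. It was 25 and 19 with the 5 reference genes and 1 and 20 with the positive control probes. Of the higher genes, CSNK1A1, CSNK1G1, FBXW2, FZD5, NUMB, PLAU, RHOA and TUBB were called with the total without GAPDH and under none of the other 4 scalings. With all samples the split was 4 and 6 with TMM factors and with the size factors of DESeq2. Of all genes tested, 29 (21.3%) had all 48 h values above all 24 h values and 19 (14%) had them all below, replicate 1 included.

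**Figure D3:**
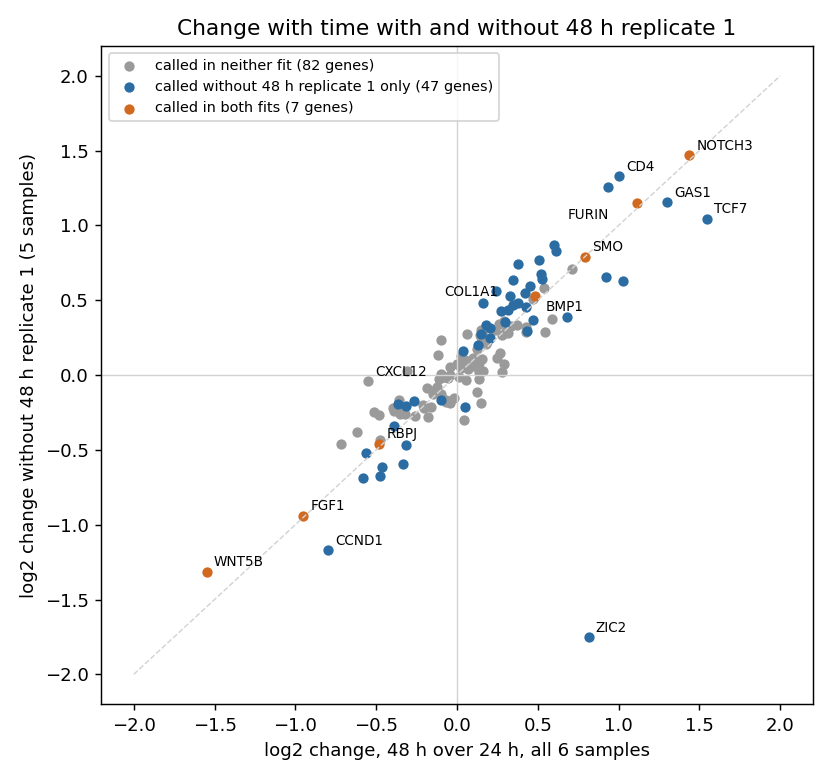
Log2 change of the scaled count from 24 h to 48 h for each of the 136 genes, with all 6 control samples (horizontal) and without 48 h replicate 1 (vertical); the dashed line marks equality. The 7 genes called in both fits lie near the line, 47 were called only without replicate 1, and ZIC2 changes sign.

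The receptors of the Notch pathway did not move together. NOTCH3 is described above. NOTCH1 had values of 81.6, 87.5 and 87.1 at 24 h and 135, 105 and 108 at 48 h, with no overlap but no call in either fit (adjusted p = 0.128 and, without replicate 1, 0.105). NOTCH2 had 1554, 1898 and 1919 at 24 h and 1744, 1188 and 1389.8 at 48 h, where replicate 1 fell among the 24 h samples and the other two lay below them. Its log2 change was -0.32 with all samples (adjusted p = 0.211) and -0.47 without replicate 1 (adjusted p = 0.011). NOTCH4 was not called in either fit. Of the 5 ligands on the panel, DLL4 was too low to be tested and 0 of the other 4 was called with all samples. In that fit 2.94% of all genes were called higher and 2.21% lower. JAG1, the ligand Jagged-1, had 493, 473 and 468 at 24 h and 265, 669.5 and 743 at 48 h. Replicate 1 was below every 24 h sample and replicates 2 and 3 above. Without replicate 1 JAG1 (log2 change 0.56, SE 0.097, adjusted p = 0.00209) and JAG2 (0.87, SE 0.20, adjusted p = 0.0105) were called higher, and DLL1 and DLL3 were not. Among all genes tested, 27.2% were called higher in these samples and 12.5% lower. DESeq2 did not call JAG2, and limma called DLL1 as well.

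Of 9 tested genes for the enzymes that cut Notch receptors or, as fringe enzymes, add sugars to them, 1 (FURIN) was called higher with all samples and 6 without replicate 1, and 0 was called lower in either fit. Over all genes tested, 2.94% were called higher with all samples, and 27.2% higher and 12.5% lower without replicate 1. The median log2 change of the 9 was 0.30 with all samples, against 0.13 for all genes, and 0.43 without replicate 1, against 0.11. ADAM17, the sheddase that makes the surface cut, had 473, 531 and 559 at 24 h and 587, 659 and 674 at 48 h. The lowest 48 h sample was replicate 1, still above all 24 h samples, and ADAM17 passed the test only without it (adjusted p = 0.028). Of the subunits of gamma-secretase, APH1A (log2 change without replicate 1 0.59, adjusted p = 0.0231) and NCSTN (0.43, adjusted p = 0.00304) were called higher without replicate 1. PSENEN had values of 949, 901 and 871 at 24 h and 1273, 1039 and 971 at 48 h, highest in replicate 1, and was not called. RFNG, a fringe enzyme, was called higher without replicate 1 (log2 change 0.53, adjusted p = 0.0105), and LFNG, another fringe, had a log2 change of -0.22 and was not. The 6 calls were 6 also with TMM factors, with the size factors of DESeq2 and with the total without GAPDH, 5 with the reference genes (without ADAM17) and 0 with the positive control probes. Over all 136 genes tested, 31, 29, 46, 25 and 1 were called higher under these scalings, in the same order. With 24 h replicate 2 left out as well, the 6 calls became 4, ADAM17 and APH1A being lost.

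In the nucleus, the pattern was mixed. RBPJ fell, as given above, and so did TLE1, a corepressor of the groucho family, without replicate 1. Its 24 h values were 381, 385 and 398, and its 48 h values 275, 286 and 323 (adjusted p = 0.0966 with all samples and 0.0407 without replicate 1). MAML3, a Mastermind coactivator, had 47, 42.3 and 46.7 at 24 h and 34.9, 124 and 95.5 at 48 h. HES1, the best known target gene of Notch, had 88.4, 94.1 and 76.3 and 83.8, 135 and 170.5. In both, replicate 1 stayed at or below the 24 h level while replicates 2 and 3 were raised, and both were called only without it (log2 change 1.26, adjusted p = 0.000692, and 0.83, adjusted p = 0.00456). CIR1, a corepressor that binds RBPJ, had 475, 508 and 445 and 582, 591 and 556, with no overlap but no call (adjusted p = 0.128). Of the other genes of this list, CTBP1, CTBP2, MAML1, MAML2 and SNW1 were called in neither fit. Among 6 tested modulators, DTX3, a ubiquitin ligase of the deltex family, had 139, 175 and 192 at 24 h and 203, 236 and 285 at 48 h and was called higher without replicate 1 (adjusted p = 0.0183). So was NUMB, an inhibitor of Notch, by a smaller step (log2 change 0.25, adjusted p = 0.0492), a call that DESeq2, limma and 4 of the 5 other scalings did not make. The share called higher without replicate 1 was 27.2% over all genes tested, and that called lower 12.5%. HDAC1, a deacetylase of corepressor complexes, had 2103, 2301 and 2428 at 24 h and 3580.2, 3003 and 2878 at 48 h. It was highest in replicate 1 (adjusted p = 0.0771 with all samples, 0.00456 without replicate 1). The acetyltransferase EP300 had 397, 549 and 599.9 and 352, 355 and 404 and passed in neither fit, but without replicate 1 it was called lower by DESeq2, with TMM factors, with the size factors of DESeq2 and with the positive control probes.

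**Figure D4:**
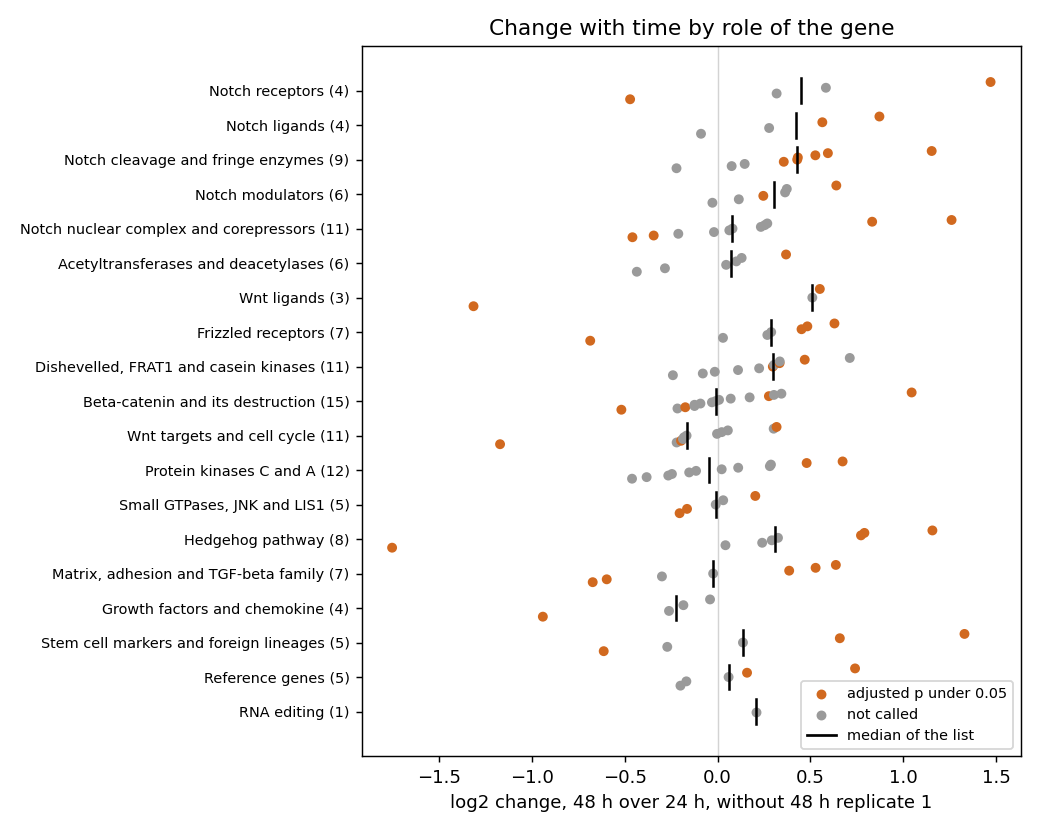
Log2 change from 24 h to 48 h without 48 h replicate 1, relative to the panel total, for the tested genes grouped by role (number tested in parentheses); each point is 1 gene, orange where the adjusted p was under 0.05, and black bars are medians. The Notch cleavage and fringe enzymes have 6 orange points above 0 and 0 below, and some other lists, such as the Notch ligands, also have them only above 0. The Notch receptors, the Hedgehog pathway and several other lists, among them the Frizzled receptors and the matrix genes, have orange points on both sides.

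Most Wnt ligands were too low to be tested: 16 of the 19 on the panel did not reach the mean of 20 counts, and WNT5A, WNT5B and WNT3 did. WNT5A and WNT5B, close relatives in the same branch of the family, went in opposite directions. WNT5A had 1199, 1045 and 1079 at 24 h and 1201, 1669 and 1579 at 48 h, where replicate 1 was about level with the highest 24 h sample and the other two were above. Its log2 change was 0.42 with all samples (adjusted p = 0.124) and 0.55 without replicate 1 (adjusted p = 0.00108). WNT3 had 106, 141 and 155 and 175, 186 and 192, all 48 h values being above all 24 h values, but passed in neither fit (adjusted p = 0.0502 without replicate 1, where TMM factors and the size factors of DESeq2 called it higher). The Wnt antagonists SFRP4 and WIF1 were too low to be tested.

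Of 7 Frizzled receptors tested, 0 passed with all samples, where 2.94% of all genes were called higher and 2.21% lower. FZD7 had 225, 274 and 265 at 24 h and 198, 156 and 159.6 at 48 h and was lower in each 48 h sample. Its log2 change was -0.58 (adjusted p = 0.0771) and, without replicate 1, -0.69 (adjusted p = 0.00669). FZD3, with 38.9, 48.9 and 45.1 and 139.7, 79.9 and 58.6, and FZD5, with 84.1, 79.5 and 84.8 and 107, 112 and 115, were higher in each 48 h sample. They and FZD2 were called higher without replicate 1 (adjusted p = 0.0369 for each of the 3), where 27.2% of all genes were called higher and 12.5% lower. However, DESeq2, the reference genes and the positive control probes called 0 Frizzled receptors higher in these samples. FZD7 was called lower with each of the 5 other scalings. Further down, CSNK1D, a casein kinase 1 isoform that phosphorylates dishevelled, had 2336, 2201 and 2355 at 24 h and 2398, 3133 and 3228 at 48 h, with replicate 1 nearest to the 24 h samples (without it log2 change 0.47, adjusted p = 0.000555). CSNK1A1, the isoform that starts the phosphorylation of beta-catenin, had 535, 558 and 569 and 885, 693 and 669.6, highest in replicate 1, and was called without it only (adjusted p = 0.0321) and under 1 of the 5 other scalings.

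Beta-catenin itself, CTNNB1, had 7094, 7344 and 7386 at 24 h and 7004, 6496 and 6853 at 48 h, and a log2 change of -0.10 (SE 0.081, adjusted p = 0.415). All 48 h values lay below all 24 h values by a small step. Without replicate 1 CTNNB1 was not called relative to the panel total, but it was called lower with TMM factors, the size factors of DESeq2 and the 5 reference genes. APC, the scaffold of the complex that destroys beta-catenin, had 308, 376 and 416 at 24 h and 233, 217 and 290.5 at 48 h, lower in each sample. Its log2 change was -0.56 (adjusted p = 0.113) and, without replicate 1, -0.52 (adjusted p = 0.043). TCF7, a transcription factor that partners beta-catenin, had 16.7, 10.9 and 19.5 and 79.1, 35.5 and 30. The log2 change of 1.55 (SE 0.43, adjusted p = 0.0959) rests on few counts, 27, 15 and 25 at 24 h and 34, 20 and 22 at 48 h. Of the 15 tested genes of this list, 2 were called higher (TCF7 and FBXW2) and 2 lower (APC and PPP2CA) without replicate 1, and 0 with all samples. Among all genes tested, 27.2% were called higher and 12.5% lower without replicate 1, and 2.94% and 2.21% with all samples. The split of this list without replicate 1 depended on the setting. It was 1 and 5 with the size factors of DESeq2, 1 and 3 with TMM factors and with the reference genes, 1 and 0 with limma and 0 and 1 with DESeq2. Over all 136 genes tested, the splits in the same order were 29 and 32, 31 and 29, 25 and 19, 34 and 11, and 27 and 14. The median log2 change of the list was -0.01 without replicate 1, against 0.11 for all genes.

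CCND1, the cyclin that drives entry into S phase and a target of Wnt signalling, was lower in each 48 h sample, with 5972, 4521 and 4621 at 24 h and 4218, 2167 and 2309 at 48 h. Replicate 1 was the closest to the 24 h samples, and the log2 change was -0.80 (SE 0.27, adjusted p = 0.124) with all samples and -1.17 (SE 0.12, adjusted p = 0.000161) without it. CCNA2, the cyclin of S and G2 phase, had 5557, 5964 and 5282 and 3252, 4836 and 4941, here with replicate 1 farthest from the 24 h samples. It was called only without replicate 1 and by a small step (log2 change -0.20, adjusted p = 0.0353), a call lost with limma, DESeq2, the total without GAPDH and the positive control probes. MYC had 848, 849.8 and 864 and 759, 769 and 699.7, with no overlap but no call (adjusted p = 0.176). Without replicate 1 MYC was called lower with TMM factors and the size factors of DESeq2. Under each of these the list had 1 gene higher and 5 lower in place of 1 and 2. Over all 136 genes tested, 31 were then called higher and 29 lower with TMM factors. With the size factors of DESeq2 these were 29 and 32, in place of 37 (27.2%) and 17 (12.5%). RB1, the retinoblastoma protein that holds cells before S phase, was called higher without replicate 1 (log2 change 0.32, adjusted p = 0.00222). The mitotic kinase CDK1, listed as CDC2, had 5015, 5088 and 4637 and 4521, 4949 and 4861, which overlapped (log2 change -0.041, SE 0.09). Of the 11 tested Wnt targets and cell cycle genes, 0 had all 48 h values above all 24 h values and 3 had them all below, against 21.3% and 14% of all genes.

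Among 8 tested Hedgehog genes, SMO was called with all samples, where 2.94% of all genes were called higher. The ligands SHH, IHH and DHH, the inhibitors SUFU and HHIP and the receptor LRP2 were too low to be tested. GAS1, a co-receptor for Hedgehog ligands, had 11.7, 15.3 and 19.5 at 24 h and 46.6, 44.4 and 25.9 at 48 h, higher in each sample, at raw counts of 19, 21 and 25 and 20, 25 and 19. Its log2 change was 1.30 (SE 0.33, adjusted p = 0.0771, and 0.0183 without replicate 1). GLI1, both effector and target gene of the pathway, had 43.3, 34.3 and 50.6 at 24 h and 32.6, 62.2 and 81.8 at 48 h. Replicate 1 was below all 24 h samples and replicates 2 and 3 were above, and GLI1 was called only without replicate 1 (log2 change 0.77, adjusted p = 0.0231). Without replicate 1 DESeq2 called neither GAS1 nor GLI1. GLI2, GLI3, RAB23 and STK36 passed in neither fit. Without replicate 1, 3 of the 8 genes were called higher and 1, ZIC2, lower, against 27.2% and 12.5% of all genes. With 1 of the 24 h samples left out as well, SMO was called higher each time. GAS1 was called without 24 h replicate 2 or 3, and GLI1 without 24 h replicate 3. With 48 h replicate 1 kept, SMO lost its call without any 1 of the 24 h samples and without 48 h replicate 2.

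The 4 genes taken as markers of activated stellate cells did not shift as a group. CDH2, N-cadherin, had 4479, 4354 and 4521 at 24 h and 4015, 2667 and 2917 at 48 h, and CD44, the hyaluronan receptor, had 4730.2, 4562 and 4595 and 4926, 2989 and 3133. In both, replicates 2 and 3 were well below the 24 h samples, and replicate 1 was just below them for CDH2 and above them for CD44. Without replicate 1 they had the smallest adjusted p of all genes (0.000132 each, with log2 changes of -0.67 and -0.60), and with it the adjusted p was 0.124 and 0.271. COL1A1, whose values are given above, was called higher without replicate 1 (log2 change 0.64, SE 0.094, adjusted p = 0.000918) and not with it (log2 change 0.34, SE 0.29, adjusted p = 0.438). PLAU, the urokinase plasminogen activator, had 823, 933 and 889 and 1948, 1319 and 992, higher in each 48 h sample and highest in replicate 1 (adjusted p = 0.124 with all samples, 0.0347 without replicate 1). Its call was lost under 4 of the 5 other scalings, while those of CDH2 and CD44 were made under each of the 5 and that of COL1A1 under all but the positive control probes. MME, neprilysin, a surface peptidase, was lower in each 48 h sample, at 647, 762 and 678 and 608, 526 and 390.1 (adjusted p = 0.128, without replicate 1 0.00949).

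**Figure D5:**
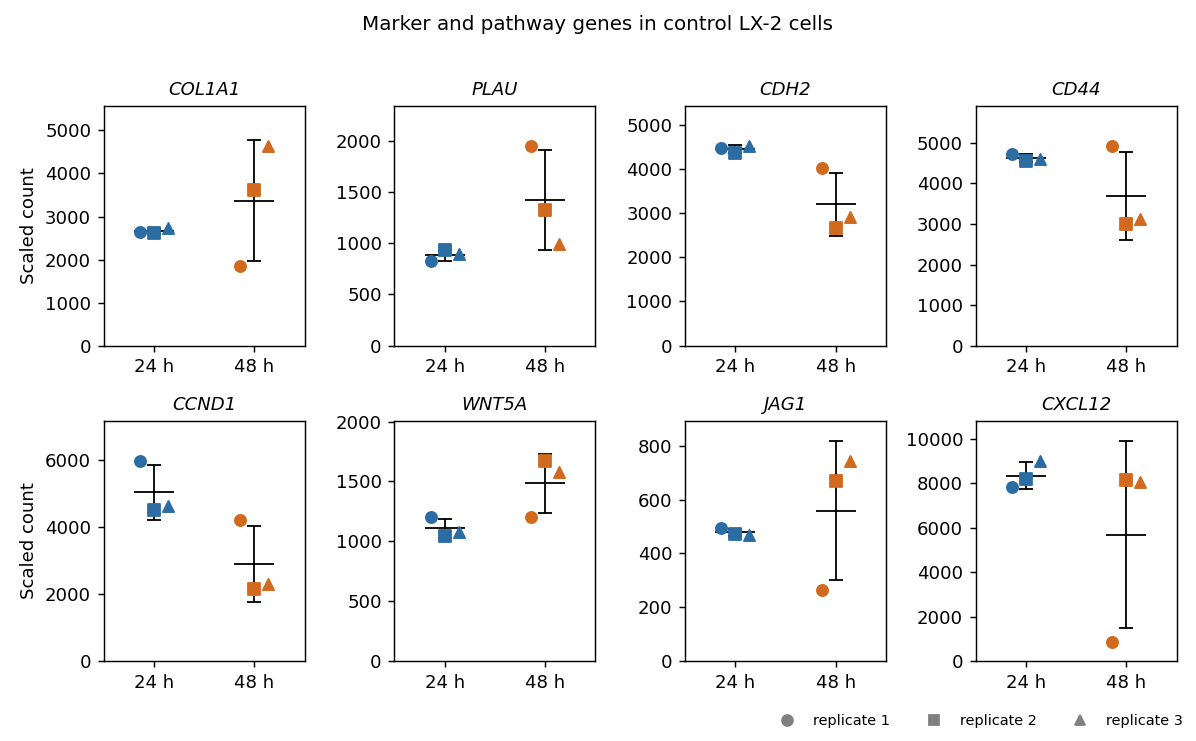
Scaled count (vertical, linear from 0) of 4 activation markers, CCND1, WNT5A, JAG1 and CXCL12 in the control samples of 24 h and 48 h; symbols mark replicates, horizontal bars the mean and error bars the SD (n = 3). Replicate 1 of 48 h (circle) is the lowest 48 h sample of COL1A1, WNT5A, JAG1 and CXCL12 and the highest of PLAU, CDH2, CD44 and CCND1.

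Among growth factors, FGF1 fell as given above, and FGF2, the basic fibroblast growth factor, had 2936, 3104 and 3141 at 24 h and 4828, 2424 and 2957 at 48 h, high in replicate 1 alone. Its log2 change was 0.15 with all samples and -0.18 without replicate 1, and it passed in neither fit. The receptor FGFR1 had 1902, 2268 and 2339 and 1599, 1636 and 1978 and was not called (adjusted p = 0.139). Without replicate 1 FGF2 and FGFR1 were both called lower with TMM factors and with the size factors of DESeq2. Under each of these, 3 genes of this list were lower in place of 1. Over all 136 genes tested, 29 and 32 were called lower under these scalings, in place of 17. CXCL12 had a log2 change of -0.55 (SE 0.68) with all samples and -0.04 (SE 0.063) without replicate 1.

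Of 12 tested kinases of the protein kinase C and A families, 0 passed with all samples, and PRKCE and PRKCD, isoforms of the calcium-independent group, were called higher without replicate 1 (log2 change 0.67, adjusted p = 0.0132, and 0.48, adjusted p = 0.0231). Over all genes tested, 2.94% were called higher and 2.21% lower with all samples, and 27.2% higher and 12.5% lower without replicate 1. PRKCA, a calcium-dependent isoform, had 624, 737 and 741 at 24 h and 331, 581 and 584 at 48 h, lower in each sample and lowest in replicate 1, without a call relative to the panel total. Without replicate 1 it was called lower with TMM factors, the size factors of DESeq2 and the positive control probes, and PRKCI was called lower with the first 2 of these. PRKACB, a catalytic subunit of protein kinase A, had 399.9, 411 and 420.2 and 533, 513 and 486, higher in each sample (adjusted p = 0.118). The small GTPases that organise the cytoskeleton moved by small steps without replicate 1. RHOA was higher (log2 change 0.20, adjusted p = 0.0231), and CDC42 (-0.20, adjusted p = 0.0281) and RAC1 (-0.16, adjusted p = 0.0321) were lower. RHOA lost its call under 4 of the 5 other scalings. CDC42 lost its call with the positive control probes, and RAC1 with these and with the total without GAPDH. DESeq2 did not call RAC1. Neither limma nor the fit that also left out 24 h replicate 2 called any of these GTPases. ALDH2, mitochondrial aldehyde dehydrogenase, had 91.5, 123 and 136 at 24 h and 305, 183 and 184 at 48 h, highest in replicate 1 (adjusted p = 0.0927, without replicate 1 0.0231). LOC652788, a model gene of the panel, had 733, 827 and 889 and 552, 657 and 702, lower in each sample without a call. ADAR, the RNA-editing enzyme, had 1864, 2218 and 2171 and 2272, 2293 and 2508, higher in each sample without a call.

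The 5 reference genes of the panel together took 37.7 to 39.9% of the counts at 24 h and 39.8 to 41.3% at 48 h, of which GAPDH alone was 27.6 to 30.1% and 29.1 to 32.7%. With all samples 0 of the 5 was called, where 2.94% of all genes were called higher and 2.21% lower. Without replicate 1, GUSB, a lysosomal enzyme, was called higher with values of 574, 622 and 687 at 24 h and 333, 1046 and 1049 at 48 h (log2 change 0.74, adjusted p = 0.000555), so it was not steady between the times nor among the 48 h samples. TUBB was called higher by a small step (0.16, adjusted p = 0.0152), but not under TMM factors, DESeq2's size factors, the reference genes or the positive control probes. CLTC, HPRT1 and GAPDH were not called. Over all genes tested, 27.2% were called higher and 12.5% lower without replicate 1. Of 24 stem cell and lineage markers on the panel, 19 were too low to be tested. Their summed scaled count was 957 to 1168 at 24 h and 822 to 1129 at 48 h, and these ranges overlapped. CD4, with 24.1, 19.7 and 16.3 at 24 h and 14, 58.6 and 45 at 48 h, was called higher without replicate 1 (adjusted p = 0.0021), while CD3D, CD8A and CD8B remained at background in all 6 samples.

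The same contrast was made in the miR-25 samples, which come from wells of the same 6 transfections and thus share day and transfection efficiency with the controls. Their panel totals were 367498 to 409581 counts at 24 h and 155334 to 200821 at 48 h. In 48 h replicate 1 the total was 155334 with miR-25 and 107377 in the control. The contrast called 7 of 140 genes, 3 higher (2.14%) and 4 lower (2.86%). FURIN and SMO were among the higher, with the Notch inhibitor NUMBL, and RBPJ and WNT5B among the lower, with FZD7 and APC, that is 4 of the 7 genes of each set were shared. FURIN had scaled counts of 165, 180.4 and 173 at 24 h and 406, 374 and 319.9 at 48 h in the miR-25 samples (log2 change 1.08, adjusted p = 0.00679). WNT5B had 907, 894 and 840.0 and 219, 324 and 416 there (log2 change -1.46, adjusted p = 0.0158). NOTCH3, BMP1 and FGF1 had log2 changes of 1.18, 0.35 and -0.53 and missed the threshold in these samples (adjusted p = 0.0691, 0.158 and 0.0883). These calls were fewer with 1 miR-25 sample left out: 0 genes passed without any 1 of the 24 h samples (24 to 31 at an unadjusted p under 0.05), 1 without 48 h replicate 2 and 2 without 48 h replicate 3. Without replicate 1 of 48 h, 62 genes were called in the miR-25 samples, 37 higher and 25 lower. Of these, 26 higher genes were shared with the 37 of the controls (70.3% of each list), and 16 lower genes were shared with the 17 of the controls (94.1% of the control list and 64% of the miR-25 list).

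The difference between the time changes with miR-25 and with the control mimic, tested as an interaction in edgeR over all 12 samples within transfection pairs, passed for 0 genes, although 8 had an unadjusted p below 0.05. Nor did any gene pass by DESeq2 (2 unadjusted) or limma (10 unadjusted). FGF1 came nearest to the threshold, and its time change was 0.40 higher on the log2 scale with miR-25 than with the control (SE 0.093, adjusted p = 0.0966), the miR-25 values being 1237, 1678 and 1489.5 in the 24 h samples and 1205, 864 and 977 in the later ones. For the other 6 called genes the difference on the log2 scale was between -0.22 and 0.099.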

How the data were processed

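RNA of LX-2 cells was hybridised to the nCounter Dx Stem Cell Panel. The authors deposited raw counts per probe, read with the Digital Analyser and nSolver 3.0, with no background correction or scaling, for 199 genes, 8 negative and 6 positive control probes and 12 samples. Names came from the panel sheet for 193 identifiers and from a RefSeq table of GRCh38.p14 for 6, and the probe stretches came from the panel sheet.

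Samples were grouped by their labels. Counts of the 6 control samples were tested with edgeR 4.0.16 in R 4.3.3 (quasi-likelihood, unpaired, panel total as library size, Benjamini-Hochberg, threshold 0.05) for the 136 genes that averaged at least 20 counts. Panel totals of 107377 to 404404 set the precision, and p-values measure the spread between transfections of 1 cell line. The code was tested on simulated data. DESeq2 1.42.0, limma 3.58.1 (pseudocount 1 or 5), other scalings and filters, each sample left out and a replicate block were alternatives. Figures were drawn with matplotlib 3.10.9 in python 3.11.15 with numpy 2.4.6, pandas 2.3.3 and scipy 1.17.1.

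The samples, gene lists and tests were chosen with earlier results of these data known. The genes named by rule were the 12 with the largest change in each direction among those called, filled up by the smallest p, the member of each role list with the smallest p either way, the stellate cell markers, the reference genes and the 5 genes with the widest range at 48 h. Other genes are named because of their values or for their role. PRKX has a near-identical copy from which its counts may not be separable, so its values are not reported. Some genes that entered the tests and the counts of calls are not reported here by name.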

Additional observations from a re-analysis of the deposited data

How the results depend on the processing

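In the controls, DESeq2 called 9 genes higher and 5 lower, limma 3 and 3, TMM factors and the size factors of DESeq2 in edgeR 4 and 6 each, and a fit of all 12 samples 5 and 5. Other filters, background subtraction, the reference genes and the total without GAPDH left the counts within 1.5 times. Leaving out 1 control sample gave 1 to 37 higher and 0 to 17 lower, where 37 and 17 are without 48 h replicate 1. The positive control probes gave 0 higher and 26 lower, and 58 unadjusted p-values were below 0.05. Without 48 h replicate 1 (alternatives chosen after the data were seen), the 37 and 17 became 34 and 11 with limma, 31 and 29 with TMM factors, 29 and 32 with the size factors of DESeq2 and 1 and 20 with the positive control probes, and 23 to 35 and 11 to 22 with a further sample left out. In the miR-25 samples, 3 higher and 4 lower became 13 and 15 with DESeq2, 7 and 7 with TMM factors, 1 and 7 with the reference genes, and 0 to 37 and 0 to 25 with 1 sample left out. For each count the cause was not tested.

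Replicate numbers did not pair the samples (correlations of deviations between same-numbered samples 0.018, -0.028 and 0.064). A replicate block in edgeR called 0 higher and 0 lower, although 38 unadjusted p-values were below 0.05 and the adjusted p of FURIN was 0.0514.

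Of the genes chosen by the naming rule, these log2 changes turned negative under the positive control probes, which move the median of all genes by -0.77: ADAR -0.56, BMP1 -0.26, CCND3 -0.50, CIR1 -0.50, COL1A1 -0.31, CSNK1A1 -0.37, DTX3 -0.18, FGF2 -0.67, FZD5 -0.33, GAPDH -0.68, GUSB -0.28, HDAC1 -0.32, JAG2 -0.13, PLAU -0.17, PRKACB -0.46, RHOA -0.62, TUBB -0.69, WNT5A -0.32, ZIC2 -0.18. Other genes of the report with a positive log2 change smaller than this shift are not listed. ZIC2 turned to -0.30 and -0.15 with limma at pseudocounts of 1 and 5, -0.89 with background subtraction and -1.75 without 48 h replicate 1, and FGF2 to -0.18 without that sample. With 1 sample left out, the log2 change lay between -1.75 and 1.41 for ZIC2, -0.18 and 0.35 for FGF2 and -0.0349 and 0.16 for TUBB. TUBB turned to -0.00730, -0.034 and -0.041 with TMM factors, DESeq2's size factors and the reference genes and to -0.018 and -0.0349 without 48 h replicates 2 and 3, and HPRT1 turned to 0.014 without 48 h replicate 3.

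With fewer counts at 48 h, genes below about 10 counts could not be told from background, and changes of genes near 20 counts rest on few barcodes. Time, day of transfection and yield cannot be told apart.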
